A study of Saccharomyces cerevisiae with 4 samples.

Results

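The genes described here make fatty acids in budding yeast (Saccharomyces cerevisiae), extend, desaturate and activate them, or switch on the desaturase gene. They are ACC1, FAS1, FAS2, OLE1, ELO1, FAA1, FAA3, FAA4, SPT23 and MGA2, which were chosen by name through the array platform's table of probe sets and genes. All 10 were found, among 5656 genes that have a probe set of their own, and together they have 24 of the 9335 probe sets on the array. Transcript levels were measured as biotin-labelled cRNA on one-colour oligonucleotide arrays, 2 from a mutant strain and 2 from a wild-type strain (n = 2 each). The mutant carries glycine in place of 8 lysines of histone H3, namely lysines 4, 9, 14 and 18, lysines 23, 27 and 36, and lysine 79, and the wild type's labels name it as a control also for a K4,36,79G strain, which was not analysed here. Both strains were harvested in mid-log phase in rich glucose medium (YPD). The labels give no mating type, ploidy or further genotype for either strain, and do not say whether the replicates come from different cultures. The p-values therefore cover the spread between these 4 arrays, which may be technical.

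Fatty acid synthesis in yeast starts with the carboxylation of acetyl-CoA to malonyl-CoA, and a large cytosolic synthase built from a pair of subunit types then assembles long saturated chains. A desaturase in the endoplasmic reticulum introduces the double bond that keeps membranes fluid, elongases lengthen the chains, and acyl-CoA synthetases activate fatty acids that are imported or released inside the cell. The desaturase gene is switched on by a pair of related transcription factors that are made as membrane-bound precursors and cut free when unsaturated fatty acids are scarce.

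Most of these transcripts had modestly lower signals in the H3 mutant, and few of the differences passed the test on their own. Signal is the linear MAS5 value of a probe set, and differences are on the log2(signal + 16) scale, mutant minus wild type, which understates the change of dim genes. A gene was called when its adjusted p (limma, Benjamini-Hochberg over 4476 tested genes) was under 0.05. Of the 9 members bright enough to test, 2 fell (FAA3 and FAA4), 0 rose and 7 did not pass. Among all tested genes 15.5% fell and 14.3% rose, 29.8% in all, so the 22.2% of tested members called is near the background. FAA3 passed the limit on signal only through its wild-type arrays, and among the 8 members above the limit in both strains 1 fell and 0 rose. The median log2 difference of the 9 members was -0.29, beside -0.03 over all tested genes, whose interquartile range ran from -0.24 to 0.18, and it was -0.26 over all 10 members. Both mutant arrays lay below both wild-type arrays for 8 of the 9 members, an ordering that 36.3% of all tested genes showed, and above them for 1 (SPT23), as for 31.1% of all tested genes. An unadjusted p under the same threshold was reached by 7 of the 9 members and by 42.6% of all tested genes. With wild-type replicate 1 left out 0 members were called, and 0 had an unadjusted p under the threshold. With mutant replicate 2 left out 0 were called and 1 had such an unadjusted p, and the count was 3 without wild-type replicate 2 and 2 when mutant replicate 1 was dropped (limma for all of these).

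**Figure D1:**
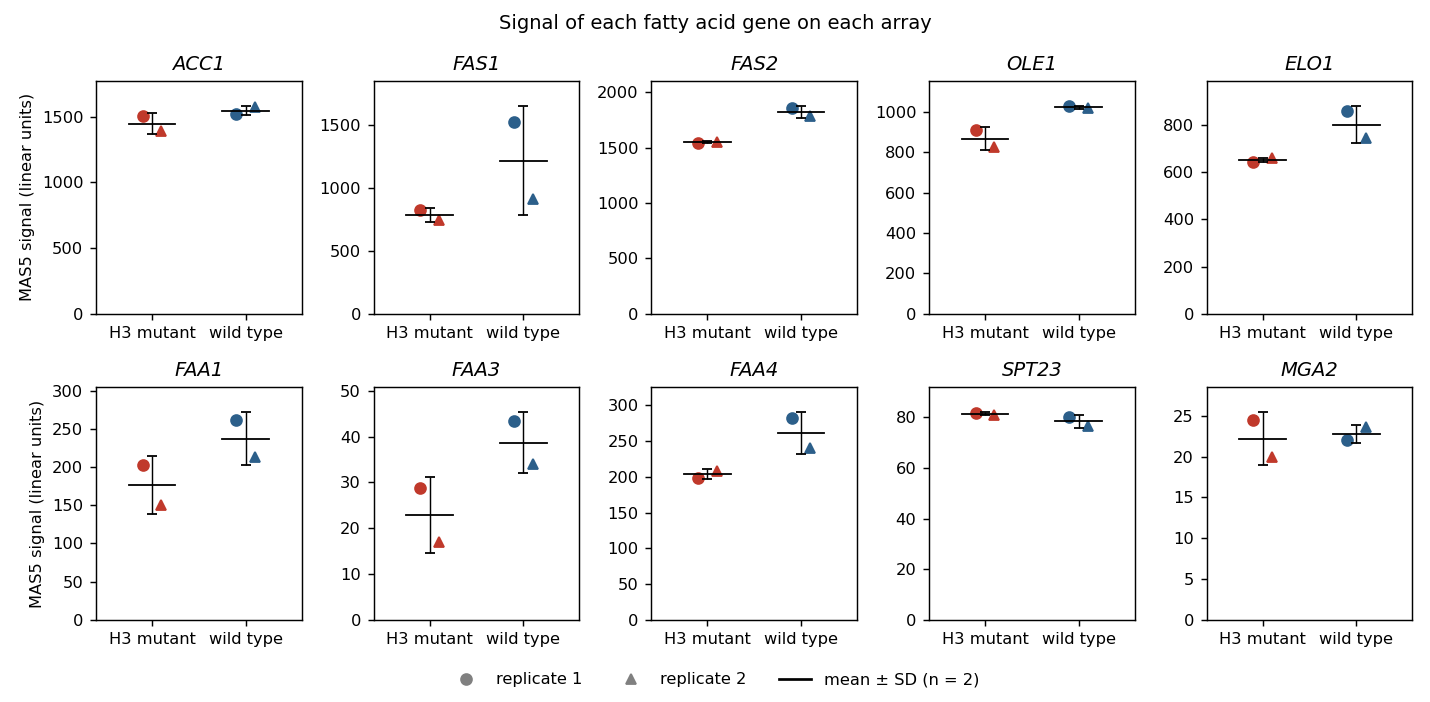
MAS5 signal (linear units, axis from 0) of each gene's brightest probe set on each array, with H3 mutant on the left and wild type on the right of each panel; circles are replicate 1, triangles replicate 2, and black lines the mean ± SD (n = 2). The mutant points lie below the wild-type points for every gene except SPT23, where they lie above, and MGA2, where the groups overlap.

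**Figure D2:**
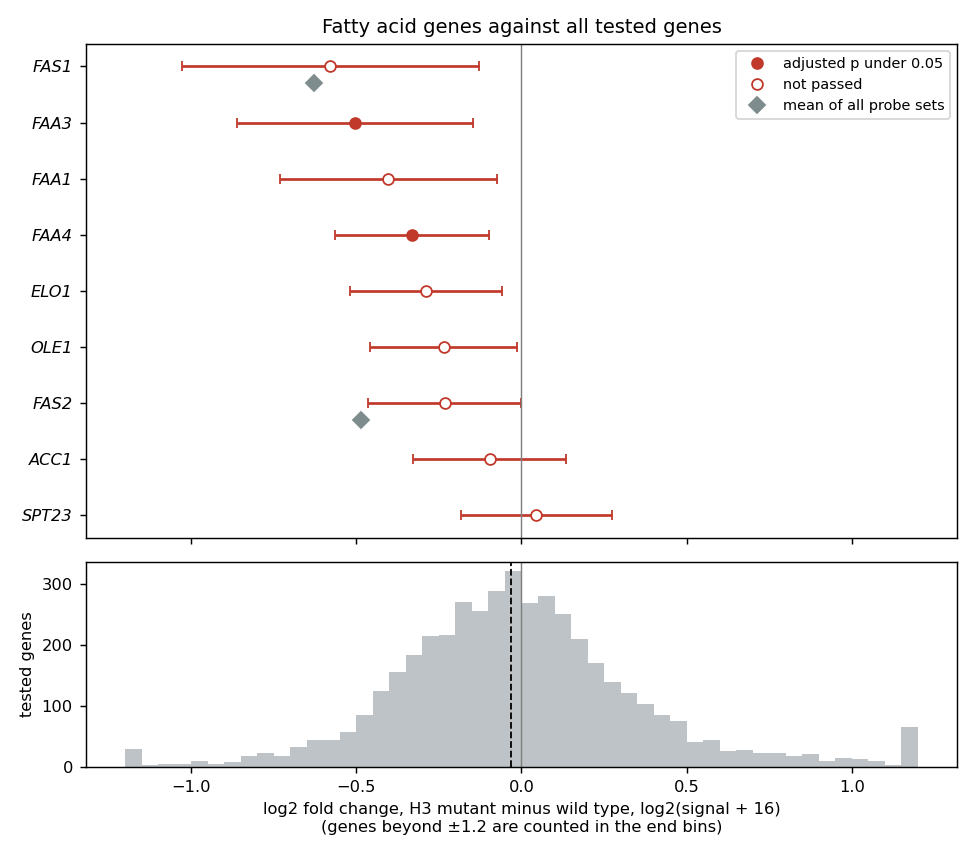
Upper panel, log2 difference (H3 mutant minus wild type) with its 95% confidence interval from limma for the 9 tested genes, filled where the adjusted p was under 0.05, with grey diamonds for the mean over all probe sets of FAS1 and FAS2. Lower panel, number of all 4476 tested genes by log2 difference, with a dashed line at their median of -0.03; the members run from -0.58 for FAS1 to 0.05 for SPT23.

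ACC1 (YNR016C), the cytosolic acetyl-CoA carboxylase and first enzyme of the pathway, showed the smallest difference of the enzymes. Its single probe set gave signals of 1501.8 and 1388.8 in the mutant, against 1520.2 and 1571.1 in wild type. The groups did not overlap, but the higher mutant array was close to the lower wild-type array. The log2 difference was -0.10 ± 0.10 (SE), with a 95% interval from -0.33 to 0.14 and an adjusted p of 0.509. ACC1 therefore lay inside the interquartile range of all genes, with 40.8% of tested genes below it.

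FAS1 (YKL182W), the beta subunit of fatty acid synthase, was lower in the mutant on each of its 8 probe sets. The brightest, 2970_s_at, stood for the gene in the test and gave 822.7 and 743.3 in the mutant, against 1521.7 and 908.6 in wild type. The spread between the wild-type arrays was large on that probe set, and its log2 difference of -0.58 ± 0.20 (SE) had an adjusted p of 0.0550, just above the threshold. That value was -0.21 without wild-type replicate 1 and -0.95 without wild-type replicate 2. On another of its probe sets, 10781_at, the signals were 506.5 and 517.6 in the mutant, against 767.6 and 657.5 in wild type. There the replicates of each strain lay closer together. The largest log2 difference, -0.90, was on 2964_at, at 319.2 and 186.5 in the mutant and 442.7 and 501.9 in wild type.

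In a fit over all 9335 probe sets, in which 4.97% were called lower and 9.09% higher, 4 of the 8 FAS1 probe sets fell and 0 rose. Those shares include dim probe sets, and among the genes bright enough to test 15.5% fell. The 4 that fell were 10781_at, 2967_s_at, 2968_s_at and 2969_s_at, with log2 differences of -0.46, -0.61, -0.68 and -0.62 and adjusted p of 0.0434, 0.0434, 0.0324 and 0.0223. The log2 differences of all 8 ran from -0.90 to -0.35, with a median of -0.61. Both mutant arrays were below both wild-type arrays on all 8, an order seen on 27.9% of all probe sets and for 36.3% of all tested genes. Averaged over its 8 probe sets, FAS1 fell by 0.63 on the log2 scale (SE 0.12, adjusted p = 0.00433 in limma), so its call depends on how its probe sets are combined. Without wild-type replicate 1 the averaged value had an adjusted p of 0.0538, and without any other single array it stayed under the threshold.

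FAS2 (YPL231W), the alpha subunit, also has 8 probe sets, and 7 of them were lower in the mutant with no overlap. The brightest, 2607_s_at, gave 1544.1 and 1555.1 in the mutant, against 1861.3 and 1787.2 in wild type. This probe set had the smallest drop of those 7, a log2 difference of -0.23 ± 0.10 (SE) with an adjusted p of 0.114. On 2606_s_at, by contrast, the signals were 638.7 and 621.4 in the mutant and 962.3 and 1007.5 in wild type. That is a log2 difference of -0.63 ± 0.08 (SE), with an adjusted p of 0.0117 over all probe sets. The eighth, 2601_at, was close to the floor, at 17.1 and 14.3 in the mutant and 8.1 and 14.4 in wild type, and its groups overlapped.

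Of the FAS2 probe sets 3 fell and 0 rose in the fit over all probe sets (2605_s_at, 2606_s_at and 7973_at). When any 1 array was left out, 0 of the 16 FAS1 and FAS2 probe sets were called in that limma fit, with 8 to 13 at an unadjusted p under the threshold. Averaged over the 8, FAS2 fell by 0.49 on the log2 scale (SE 0.11, adjusted p = 0.0122 in limma). Leaving out wild-type replicate 1 (adjusted p = 0.0733), wild-type replicate 2 (0.0710) or mutant replicate 2 (0.0717) ended that call. Probe sets of one gene read the same RNA on the same arrays and are not replicates. Which part of a transcript each one reads is not recorded in the platform's table.

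**Figure D3:**
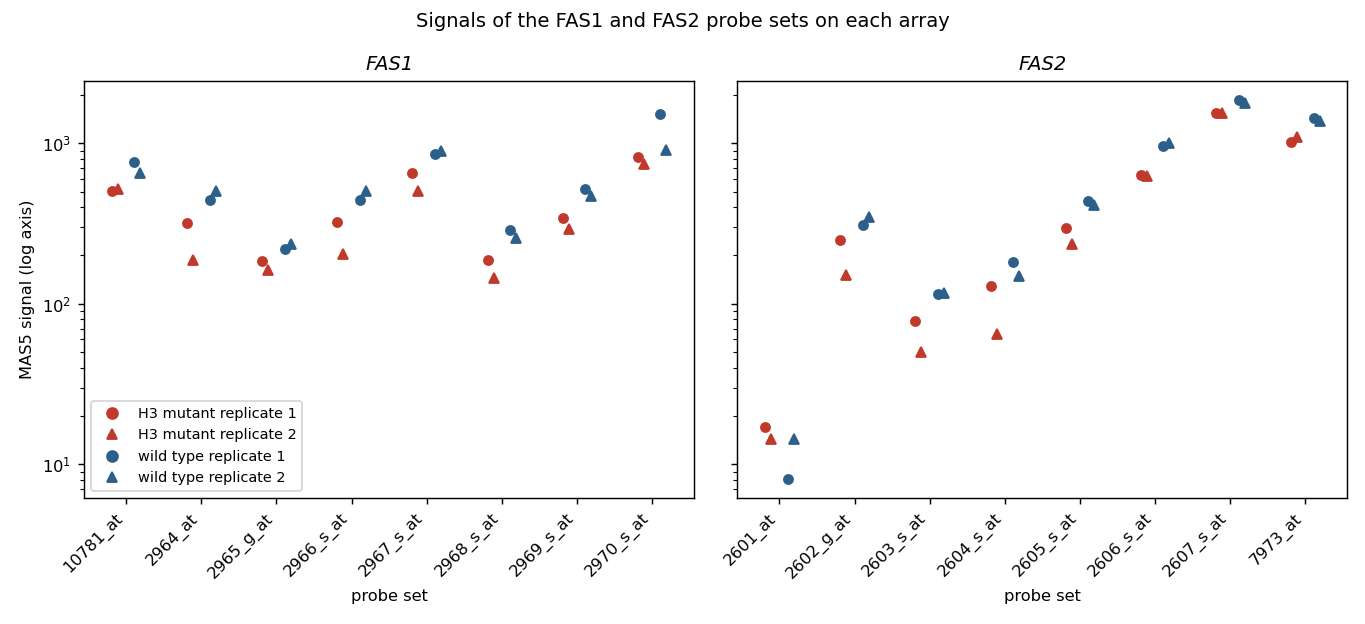
MAS5 signal (log axis) of the 8 probe sets of FAS1 and the 8 of FAS2 on each array, H3 mutant in red to the left of wild type in blue, circles for replicate 1 and triangles for replicate 2. Mutant points lie below wild-type points on every probe set except the dim FAS2 probe set 2601_at, and on several the mutant replicate 2 lies well below mutant replicate 1.

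The replicates of each strain also differed. Mutant replicate 2 was below mutant replicate 1 for 6 of the 9 tested members on their brightest probe sets, against 49.7% of all tested genes. The same order held on 7 of 8 FAS1 and 6 of 8 FAS2 probe sets, which are not independent of each other. Wild-type replicate 2 was below wild-type replicate 1 for 8 of the 9 tested members on their brightest probe sets, against 60.6% of all tested genes, and on 4 of 8 probe sets of each FAS gene. Wild-type replicate 1, without which 0 members were called, was thus the higher wild-type array for most members. As the mean log2 level over its probe sets, FAS1 stood at 8.59 and 8.27 on mutant replicates 1 and 2, against 9.11 and 9.02 on the wild-type replicates. FAS2 stood at 8.14 and 7.84 in the mutant, against 8.47 and 8.48 in wild type. Both mutant arrays were thus below both wild-type arrays for each subunit on this averaged scale. The ratio of 3′ to 5′ signal for the control gene ACT1, a measure of RNA and labelling quality, was 1.49 and 1.59 in the mutant and 1.56 and 1.51 in wild type. For SPT15 it was 4.10 and 3.65 in the mutant and 3.07 and 4.13 in wild type, and for SRB4, a dim control, 2.15 and 2.71 in the mutant and 2.29 and 1.87 in wild type. The groups overlapped for all 3 control genes, and the part of RNA quality in the FAS1 and FAS2 values was not tested.

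OLE1 (YGL055W), the fatty acid desaturase, had signals of 908.0 and 826.2 in the mutant, against 1027.6 and 1018.3 in wild type. The wild-type arrays were nearly equal, and both mutant arrays were below them. The log2 difference was -0.24 ± 0.10 (SE), with a 95% interval from -0.46 to -0.01 before adjustment, and it did not pass (adjusted p = 0.0971). OLE1 was thus at 0.849 of its wild-type level on the log2(signal + 16) scale. ELO1 (YJL196C), an elongase known to extend medium-chain acyl-CoAs, gave 645.7 and 659.4 in the mutant, against 858.6 and 747.1 in wild type. Its log2 difference of -0.29 ± 0.10 (SE) missed the threshold with an adjusted p of 0.0588.

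The acyl-CoA synthetase genes had the 2 calls. FAA4 (YMR246W), which together with FAA1 activates most imported long-chain fatty acid, gave 198.6 and 208.5 in the mutant, against 281.8 and 240.4 in wild type. FAA4 fell by 0.33 on the log2 scale (SE 0.10, adjusted p = 0.0384), and the mutant arrays were closer to each other than the wild-type arrays were. In the fit over all probe sets, used above for FAS1 and FAS2, FAA4 did not pass (adjusted p = 0.0904 in limma). FAA4 was not called when wild-type replicate 1 was left out (adjusted p = 0.165), mutant replicate 1 (0.156) or mutant replicate 2 (0.0868), and by a smaller margin with quantile normalization (0.0566) and without an intensity trend (0.0514).

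FAA1 (YOR317W) gave 202.9 and 149.9 in the mutant, against 261.7 and 212.6 in wild type. Its log2 difference of -0.40 was larger than that of FAA4, but its replicates were farther apart (SE 0.15, adjusted p = 0.0637) and it did not pass. FAA3 (YIL009W), a further long-chain acyl-CoA synthetase gene, was dim, at 28.7 and 17.0 in the mutant and 43.4 and 34.0 in wild type. FAA3 fell by 0.50 on the log2 scale (SE 0.16, adjusted p = 0.0396). In the fit over all probe sets FAA3 did not pass (adjusted p = 0.123 in limma). Its mutant mean, 22.9, was under the limit for testing (25.1) and its wild-type mean, 38.7, above it, so it was tested only through the strain in which it is higher, and its call is a description. The log2 difference moves with the offset, from -0.77 with an offset of 1 to -0.24 with an offset of 64. FAA3 was not called when wild-type replicate 1 was left out (adjusted p = 0.235), nor without wild-type replicate 2 (0.0789) or mutant replicate 2 (0.229).

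The genes for the membrane-bound activators of OLE1 had values close to 0, and neither passed. SPT23 (YKL020C) gave 81.9 and 81.0 in the mutant, against 80.2 and 76.7 in wild type. Its log2 difference was 0.05 ± 0.10 (SE), with a 95% interval from -0.18 to 0.27 and an adjusted p of 0.762. SPT23 was the 1 tested member with a value above 0. MGA2 (YIR033W), the partner of SPT23, was below the limit for testing, at 24.5 and 19.9 in the mutant and 22.0 and 23.6 in wild type. With no filter on signal MGA2 gave -0.02, with a 95% interval from -0.27 to 0.22. Both factors act after proteolytic release from the membrane, which transcript levels do not show.

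The values above rest on the deposited scaling, in which every array has the same trimmed mean (125.1). The bacterial hybridization controls had geometric means of 174 and 201 on the mutant arrays and 138 and 141 on the wild-type arrays. Scaling to them moved the median log2 difference of all tested genes to -0.38, and that of the 9 members to -0.70. Under that scaling 8 of the 9 members fell, all but SPT23, where 55.6% of all tested genes fell and 4.67% rose, 60.3% in all. Of all calls 7.75% were higher under that scaling, against 48.0% under the deposited one. The sizes and calls of the members therefore rest on the scaling. ACC1, FAS1, FAS2, OLE1, ELO1, FAA1, FAA3 and FAA4 were below 0 under both. Scaling to the hybridization controls lowers the mutant values relative to wild type for every gene, so a value below 0 could not change sign. The shared sign of these members is therefore no separate result.

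FAA3, the member with the largest called difference, was compared over the 4 arrays with every tested gene that is not a member. The other members were left out of the comparison. The nearest profiles among these genes, by Euclidean distance between log2 values centred on each gene's mean, were those of AMD1 (0.0656), LAT1 (0.118) and NRK1 (0.120). AMD1, the AMP deaminase gene, gave 49.5 and 35.5 in the mutant, against 74.6 and 59.3 in wild type. Likeness over 4 arrays in 2 groups is a description only.

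Beyond the 10 genes, 10 lists of related genes were followed, holding 89 genes, of which 76 were tested. Of these 15 rose, 10 fell and 51 did not pass, with a median log2 difference of 0.05. Of the tested genes 6 were above the limit on signal in only 1 strain (CEM1, AIM22, ARE2, EKI1, POT1 and ADR1, of which CEM1, AIM22, EKI1 and ADR1 were named after their values were seen), and among the remaining 70 genes 13 rose and 9 fell. The sign of 26 of the 76 differences changed under scaling to the hybridization controls, as for 31.9% of all tested genes. Each list below is described by its counts and its median, to be read beside the 14.3% and 15.5% of all tested genes that rose and fell.

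**Figure D4:**
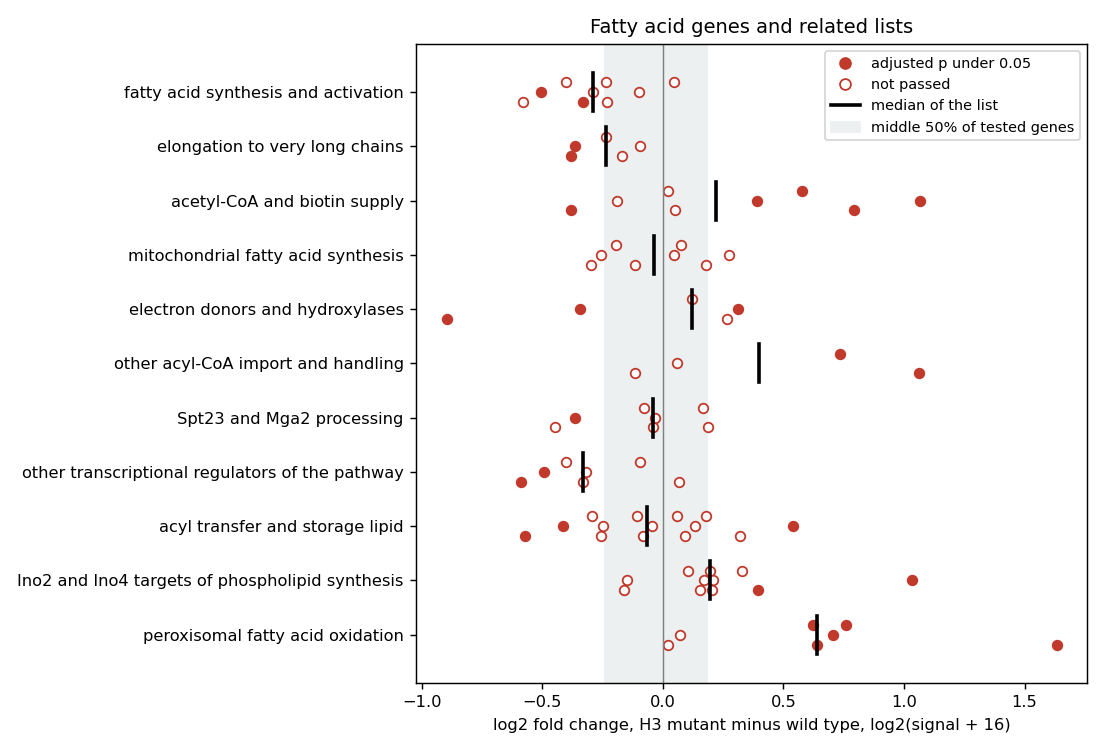
Log2 difference (H3 mutant minus wild type) of each tested gene in the fatty acid group and in 10 related lists, filled where the adjusted p was under 0.05 (limma); black bars are list medians, the grey band is the interquartile range of all tested genes, and the vertical offset within a list only separates points. The fatty acid group, the elongation list and the regulators sit to the left, with medians of -0.29, -0.24 and -0.33, and peroxisomal oxidation to the right, with a median of 0.64 over its 7 tested genes (0.44 over all 13).

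Genes that lengthen fatty acids to very long chains were on the low side. Of 5 tested, 2 fell, 0 rose and 3 did not pass, with a median of -0.24. ELO3, the elongase that makes the longest chains, gave 757.1 and 769.4 in the mutant, against 1012.0 and 962.1 in wild type, a log2 difference of -0.36 (adjusted p = 0.0190). PHS1, the dehydratase of the elongation cycle, gave 290.5 and 292.1 in the mutant, against 421.2 and 349.9 in wild type, a log2 difference of -0.38 (adjusted p = 0.0260). For each gene leaving out any single array other than wild-type replicate 2 ended the call, with adjusted p up to 0.106 for ELO3 and 0.121 for PHS1.

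Electron carriers that serve the desaturase and other lipid oxidases held the largest drop in the lists. CYB5, the cytochrome b5 gene, gave 184.5 and 185.8 in the mutant, against 385.4 and 332.9 in wild type. CYB5 fell by 0.90 on the log2 scale (SE 0.10, adjusted p = 0.000303), and no alternative ended its call. CBR1, the cytochrome b5 reductase gene, fell by 0.34 (adjusted p = 0.0246), and was not called without wild-type replicate 2 (0.0868), mutant replicate 1 (0.127) or mutant replicate 2 (0.0866). SCS7, the sphingolipid fatty acid hydroxylase gene, rose by 0.31 (adjusted p = 0.0439), but gave -0.10 under scaling to the hybridization controls and was lost without any 1 array (adjusted p from 0.0536 to 0.215). Of the 5 genes 1 rose, 2 fell and 2 did not pass.

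The supply of acetyl-CoA and of biotin, the cofactor that Acc1 carries, showed a split. ACS2, the acetyl-CoA synthetase gene used during growth on glucose, gave 518.0 and 511.5 in the mutant, against 688.7 and 661.1 in wild type. ACS2 fell by 0.38 (adjusted p = 0.0134), a call lost without wild-type replicate 1 (0.0585), mutant replicate 1 (0.0612) or mutant replicate 2 (0.0700). The biotin genes lay on the other side. BIO3, which makes the diamino precursor of biotin, gave 87.6 and 88.3 in the mutant, against 33.3 and 34.1 in wild type, and rose by 1.06 (adjusted p = 0.000133). BIO4, the dethiobiotin synthetase gene, rose by 0.79 (adjusted p = 0.000770), and the biotin transporter gene VHT1 rose by 0.58 (adjusted p = 0.00337), although VHT1 was not called under scaling to the hybridization controls (0.21, adjusted p = 0.248). Of the 8 tested genes of this list 4 rose, 1 fell and 3 did not pass. The fourth that rose was BIO2, biotin synthase, with 0.39, which was named after its value was seen and gave 0.0082 under that scaling. BPL1, the ligase that attaches biotin to Acc1, was also named after its value was seen, with a log2 difference of 0.02 that was -0.25 under the same scaling.

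Calls among regulators of the pathway were all downward. Of 7 tested genes for the ubiquitin-dependent processing of Spt23 and Mga2, 1 fell and 0 rose, with a median of -0.04. RSP5, the ubiquitin ligase of that step, gave 172.9 and 180.1 in the mutant, against 225.0 and 238.4 in wild type, a log2 difference of -0.36 (adjusted p = 0.0179) that was not called without wild-type replicate 2 (0.0691), mutant replicate 1 (0.0933) or mutant replicate 2 (0.0549). Of 7 tested other transcriptional regulators 2 fell and 0 rose, with a median of -0.33. Over all 9 of that list, both mutant arrays were below both wild-type arrays for 7 and above them for 0, beside 36.3% and 31.1% of all tested genes. The 2 that fell were RAP1, with -0.49 (adjusted p = 0.0111), and ABF1, with -0.59 (adjusted p = 0.0120), both general regulatory factors known to bind the FAS gene promoters. RAP1 lost its call without wild-type replicate 1 (0.0671) or mutant replicate 2 (0.0851), and ABF1 without wild-type replicate 1 (0.0676). INO2 and INO4, the pair of activators through which inositol controls the FAS genes, were below the limit for testing and were named after their values were seen. INO2 gave 21.4 and 22.3 in the mutant, against 17.8 and 25.7 in wild type. INO4 gave 18.8 and 15.7 in the mutant, against 23.1 and 19.3 in wild type, with no overlap. With no filter on signal the log2 differences were 0.01 for INO2 and -0.16 for INO4, and neither passed.

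Phospholipid genes listed here as targets of the same Ino2 and Ino4 activators had mostly values above 0. Of 11 tested 2 rose, 0 fell and 9 did not pass, with a median of 0.19, or -0.20 once the arrays were scaled to the hybridization controls. OPI3, a methyltransferase of phosphatidylcholine synthesis, gave 355.0 and 387.7 in the mutant, against 173.2 and 173.0 in wild type, and rose by 1.03 (adjusted p = 8.13e-05). INO1, the inositol-phosphate synthase gene, gave 49.1 and 42.2 in the mutant, against 31.7 and 30.0 in wild type. INO1 rose by 0.39 (adjusted p = 0.0278), a call lost under that scaling (adjusted p = 0.582) and without wild-type replicate 1 (0.0834), wild-type replicate 2 (0.0993) or mutant replicate 1 (0.160). The difference between these genes and the FAS genes was not itself tested.

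Genes of acyl transfer and storage lipid, hydrolases among them, were mostly uncalled. Of 14 tested 1 rose, 2 fell and 11 did not pass, with a median of -0.06. The sterol acyltransferase paralogs ARE1 and ARE2 had calls of opposite sign. ARE1 gave 316.6 and 323.6 in the mutant, against 194.8 and 238.0 in wild type, and rose by 0.54 (adjusted p = 0.00629), a call lost under scaling to the hybridization controls (0.14, adjusted p = 0.423). ARE2 gave 18.2 and 26.3 in the mutant, against 43.3 and 38.0 in wild type, and fell by 0.57 (adjusted p = 0.0115). Its mutant mean was under the limit on signal, and the call was lost without wild-type replicate 1 (0.0930) or mutant replicate 1 (0.0751). YEH2, a steryl ester hydrolase gene, fell by 0.41 (adjusted p = 0.0306) and lost its call without wild-type replicate 1 (0.0784), wild-type replicate 2 (0.135) or mutant replicate 2 (0.183).

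Genes on the list for peroxisomal fatty acid oxidation, which also holds regulators and transporters, had mostly higher signals in the mutant. Over all 13 genes of the list, tested or not, the median log2 difference was 0.44. Both mutant arrays were above both wild-type arrays for 9 of these genes and below them for 0, orderings that 31.1% and 36.3% of all tested genes showed. Of 7 tested 5 rose, 0 fell and 2 did not pass, and the median of these 7 was 0.64, or 0.37 under scaling to the hybridization controls. POT1 and ADR1 passed the limit on signal only through the mutant arrays, in which they are higher, and of the 5 genes above it in both strains 3 rose. The count and the median of the tested genes therefore lean upward. SPS19, an auxiliary enzyme for unsaturated chains, gave 178.7 and 172.2 in the mutant, against 43.8 and 47.6 in wild type, and rose by 1.63 (adjusted p = 9.27e-06). FOX2, the multifunctional beta-oxidation enzyme gene, rose by 0.71 (adjusted p = 0.00140), and POT1, the thiolase gene, rose by 0.76 (adjusted p = 0.00261). Of 4 tested genes for other acyl-CoA import and handling 2 rose, 0 fell and 2 did not pass. PCS60, a peroxisomal acyl-CoA synthetase family gene, gave 246.1 and 217.2 in the mutant, against 97.1 and 107.7 in wild type, and rose by 1.06 (adjusted p = 0.000135). TES1, the peroxisomal thioesterase gene, rose by 0.73 (adjusted p = 0.000910). FAA2, the peroxisomal relative of FAA1, FAA3 and FAA4, was too dim to be among the tested genes. FAA2 was named after its values were seen, at 31.2 and 28.9 in the mutant and 12.0 and 10.9 in wild type, the opposite direction from FAA3 and FAA4.

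The separate fatty acid synthesis pathway of mitochondria, which feeds lipoic acid, gave no call. Of 8 tested 0 rose, 0 fell and 8 did not pass in limma, with 2 at an unadjusted p under the threshold and a median of -0.04. ACP1, the mitochondrial acyl carrier protein gene, gave 638.3 and 700.6 in the mutant, against 588.5 and 588.0 in wild type. Its log2 difference was 0.18 (adjusted p = 0.177), and -0.23 under scaling to the hybridization controls.

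Markers of mating type moved with the strain in these same arrays. Both mutant arrays were below both wild-type arrays for 7 of 7 a-specific and 10 of 10 haploid-specific genes, tested or not, and for 36.3% of all tested genes. The lists had median log2 differences of -3.00 and -1.89. Of the 6 and 9 that were tested, 5 in each list passed the limit on signal only through the wild-type arrays, so no count of calls is given. The summed signal of the 7 a-specific genes was 113.7 and 110.6 in the mutant, against 2282.5 and 2562.2 in wild type. That of the 10 haploid-specific genes was 228.8 and 238.1 in the mutant, against 1296.9 and 1230.8 in wild type. Of the 4 alpha-specific genes only SAG1 was tested and rose, and the summed signal was 155.8 and 152.2 in the mutant, against 90.3 and 85.1 in wild type. SAG1 alone gave 115.8 and 106.7 in the mutant, against 47.5 and 38.6 in wild type. MF(ALPHA)1, MF(ALPHA)2 and STE3 had log2 differences of -0.06, 0.05 and -0.07, and the median of the 4 was -0.0069. No marker was at 0. Their part in the fatty acid gene values was not tested, and the labels do not allow a difference in mating type or ploidy to be told apart from the histone change.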

How the data were processed

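Per the labels' protocols, total RNA was extracted with hot acid phenol and labelled with biotin as cRNA. The deposited values are signal intensity per probe set on a linear scale, from 0 to 7497. The submitters' processing notes name MAS5 as the tool, and which version and target value it used is not stated there. The values were taken without another normalization. Of 9335 probe sets, the platform's table gives 6504 a single gene, 328 more than 1 gene and 2503 no gene. Symbols were updated through gene identifiers, and a probe set with more than 1 gene was assigned to none.

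The test was limma 3.58.1 (R 4.3.3; lmFit, then eBayes with an intensity trend) on log2(signal + 16), with Benjamini-Hochberg adjustment. Tested genes had their brightest probe set at or above the lower quartile, a signal of 25.1. There were 2 residual and 7.03 prior degrees of freedom. With so few arrays the precision is limited, and an exact permutation of 2 against 2 arrays could not go below p = 0.333. The method was run on simulated data with independent noise and with spreads shuffled among genes. How well it recovers differences as small as most of the members' is not given here. Related genes named were up to 3 called per list and direction by p, or the 2 brightest where none was called. Exceptions are marked in the text. The members, lists and tests were chosen with earlier results of these data known. Figures used matplotlib 3.10.9.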

Additional observations from a re-analysis of the deposited data

How the results depend on the processing

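The count of members called, 2, was 4 with median centring, 4 with the mean of all probe sets, 8 with scaling to the hybridization controls, 5 with the replicate number as a block, 1 with a filter at the median, 1 without an intensity trend, and 0 and 6 at thresholds of 0.01 and 0.1. Leaving out 1 array gave 0 to 3. The members' median of -0.29 was -0.70 with scaling to the hybridization controls. The count of related genes called, 25, was 45 (9 higher and 36 lower) with that scaling, 16 with a filter at the median and 13 at the threshold of 0.01, and 16 to 22 without 1 array. The count of all genes called, 1335, was 2698 with that scaling and 640 at the threshold of 0.01, and 777 to 908 without 1 array. Of the 16 FAS1 and FAS2 probe sets, 7 were called, 12 with median centring, 15 with that scaling and 4 with the replicate block, and 0 without any 1 array, a comparison added after the data were seen. In these fits the lone array of a strain is assumed to vary like the others. The deviations of same-numbered arrays correlated at 0.13 over tested genes. With only 2 numbers, no pairing was taken from the labels. The block called ELO1, FAA1 and FAS1 besides FAA3 and FAA4. Median centring called FAA1 and FAS1 besides FAA3 and FAA4, and a robust prior called ELO1 besides FAA3 and FAA4. With quantile normalization the count stayed at 2, but FAS2 was called in place of FAA4. Scaling to the hybridization controls moved the median of all tested genes by -0.35 and changed the sign of 1 of 9 members and 26 of 76 related genes, among them SPT23 (-0.30), ACP1 (-0.23) and SCS7 (-0.10), and MCT1 changed sign (0.019) with the mean of its probe sets. Under scaling to the hybridization controls only values above 0 could change sign, because it lowers mutant values relative to wild type for every gene. Why the hybridization controls differed between the strains was not tested. Of the other single-gene comparisons, 115 for members and 314 for named related genes kept direction and side of the threshold, 12 and 35 lost a call and 18 and 1 gained one. Dim genes such as FAA3 and MGA2 are limited by signal over background.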
